A study of Mus musculus with 15 samples.

Results

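Intestinal organoids grown from the E16.5 mouse fetus were compared with adult intestinal organoids in which an active YAP transgene had been switched on, to ask what still separates YAP-induced adult epithelium from fetal epithelium. The comparison uses 6 of the 15 libraries of the series, 3 per group, and all 27179 rows of the organoid count table. The fetal organoids came from wildtype C57Bl/6J proximal small intestine, with the intestines of 3 fetuses pooled for each sample and no doxycycline. The YAP-induced organoids came from adult proximal small intestine of the genotype TetON-hYAP/H2B-mCherry and received doxycycline (DOX), which turns on a human YAP gene carrying an activating mutation. Organoids of the same genotype without DOX, also 3 libraries, shared the table and are given for scale. The adult libraries carry no strain label, and the promoter that drives the DOX-responsive activator is not given in the sources used here. Nothing in the labels ties the DOX replicates to different animals, and p-values cover no more than the variation among these libraries, some of which may be technical.

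YAP is a transcriptional coactivator that binds TEAD factors at enhancers of growth and repair genes. The Hippo kinases phosphorylate it and hold it in the cytoplasm, and mutation of the phosphorylated serine frees it to enter the nucleus. In gut epithelium YAP is known for its part in regeneration after injury, when adult crypts take up features of the fetal epithelium, and fetal intestinal cells grow in culture as simple spheres while adult crypt cells form budding organoids. The rows of the table carry 0 gene identifiers. The transgene, YAP targets, fetal markers and the epithelial identity of the cultures were therefore not checked, and rows are described by their size, direction and level.

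Total counts were 23355962 to 27089491 in the fetal libraries and 23789118 to 36977226 in the DOX libraries. Of the 27179 rows, 6640 had no count in any of these 6 libraries, and 14877 passed the filter on low counts and were tested. The tested rows held at least 99.9% of the counts of each library. No fetal or DOX library repeated another within counting error, since the chi-square of each pair within a group was 4.17 or more per degree of freedom. Each library was counted as 1 replicate, though this does not show that replicates came from separate cultures. Replicates varied with a biological coefficient of variation of 5.59% in fetal and 8.31% in DOX organoids. It was 35.2% without DOX, where replicate 3 stood apart from the other two.

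Fetal and DOX organoids were separated over most of the measured transcriptome. Of the 14877 tested rows, 9785 (65.8%) differed at an adjusted p under 0.05 (edgeR quasi-likelihood test, Benjamini-Hochberg over all tested rows). Rows higher in fetal organoids numbered 5267 (35.4%) and rows lower in fetal organoids 4518 (30.4%). With library size alone as the scaling these were 7908 and 2811, so the balance of directions depends on the scaling, which moved the median log2 difference of all tested rows from 0.08 to 0.67. The direction and the call were shared by all 4 scalings tried in 4896 rows higher and 2810 rows lower in fetal organoids. Another 121 rows were called in opposite directions under different scalings. The fit takes its spread from all 9 organoid libraries. From the fetal and DOX libraries alone, 12039 of 14368 tested rows (83.8%) were called. In such bulk libraries fewer cells of a type and less RNA per cell cannot be told apart. Age, genotype, DOX exposure and any difference in library preparation changed together between these groups and cannot be told apart either.

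Many of the differences were large. The median absolute log2 difference of a tested row was 0.90, a fold of 1.86, and 1 row in 4 exceeded a log2 difference of 1.88 in either direction. Called differences over 2-fold numbered 3524 higher (23.7% of tested rows) and 3079 lower (20.7%) in fetal organoids, together 44.4%. Over 8-fold there were 1036 higher (6.96%) and 1069 lower (7.19%), and over 32-fold 448 and 608. Of the rows over 8-fold, 101 of the higher had no DOX count and 184 of the lower no fetal count, where the fitted size depends on the prior count. When the empty group was given a floor of 3 counts, 1034 higher and 1056 lower rows still passed 8-fold. The 3 fetal and the 3 DOX values did not overlap in 3520 of the 3524 higher and in 3069 of the 3079 lower rows over 2-fold. Among all tested rows, the values did not overlap in 12519 (84.2%), while 65.8% were called.

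**Figure D1:**
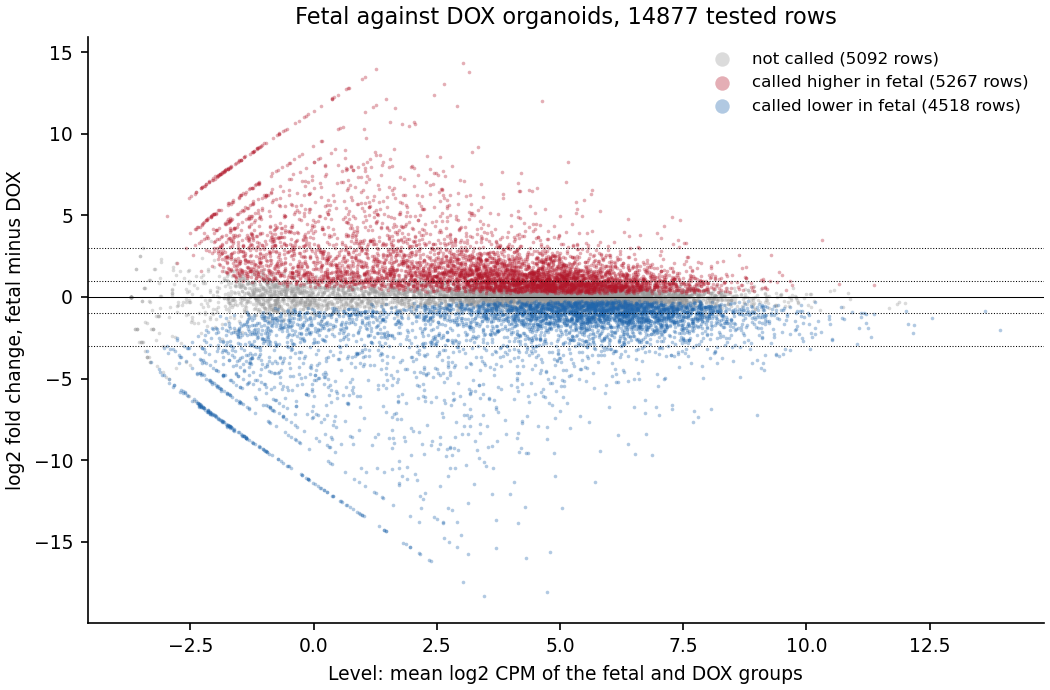
Each point is 1 of 14877 tested rows, placed by its mean log2 CPM over the fetal and DOX groups (horizontal) and its log2 fold change, fetal minus DOX (vertical), with dotted lines at 2-fold and 8-fold. The 5267 rows higher and the 4518 rows lower in fetal organoids lie at all levels, and the straight streaks at the left are rows with 0 or a few counts in a group.

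Most of the rows over 8-fold were low in at least 1 library. A row low in a group could enter the test through its counts in another, so the rows read well throughout were also taken by themselves. Of the 11228 rows with at least 1 CPM (counts scaled to a common library size) in all 6 libraries, 7088 were called, 3758 higher and 3330 lower in fetal organoids. Among these 11228 rows, 2087 were higher and 1927 lower by over 2-fold. Over 8-fold, 208 were higher and 294 lower, out of 1036 and 1069 among all tested rows.

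A set of rows did not separate the groups beyond a stated bound. For 4423 tested rows (29.7%) the 95% interval of the difference lay within 2-fold, and 4313 of them had at least 1 CPM in all 6 libraries. The interval does not cover the choice of scaling, and with library size alone 3439 rows (23.1%) were bounded within 2-fold. Of the 4423 rows, 1479 were called nonetheless, with a difference too small to leave 2-fold. The 4423 rows had a median of 39.8 CPM in fetal, 38.9 CPM in DOX and 39.1 CPM in organoids without DOX. The bound chose these rows, so near-equal fetal and DOX medians are no finding. For 1451 rows the interval lay within 1.5-fold. A further 2148 rows were neither called nor bounded, so this fit does not say whether they differ by 2-fold. Its spread includes the libraries without DOX. From the fetal and DOX libraries alone, 6330 of 14368 tested rows (44.1%) were bounded within 2-fold.

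The balance of directions changed with the level of the row. Level is the mean log2 CPM of the fetal and DOX groups, each with equal weight. Below 0 on this scale, 809 of 2289 rows (35.3%) were higher and 693 (30.3%) lower in fetal organoids, and from 0 to 2, 875 of 1859 (47.1%) and 467 (25.1%). From 2 to 4, 1272 of 2754 rows (46.2%) were higher and 635 (23.1%) lower in fetal organoids. From 6 to 8, 625 of 2829 rows (22.1%) were higher and 1134 (40.1%) lower. At 8 or more, 72 of 553 rows (13.0%) were higher and 300 (54.2%) lower, and 197 of the 300 were lower by over 2-fold. The share of calls that were higher in fetal organoids was 53.9% below 0, 65.2% at 0 to 2 and 66.7% at 2 to 4, and fell from there to 19.4% at 8 or more. Over the same levels, from 2 to 4 up to 8 or more, it fell from 64.4% to 16.9% with RLE size factors, from 72.1% to 25.5% with upper quartile scaling and from 80.8% to 47.1% with library size alone. Between 6 and 8 the majority was on the DOX side under the other scalings and on the fetal side (66.4% of calls) with library size alone.

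**Figure D2:**
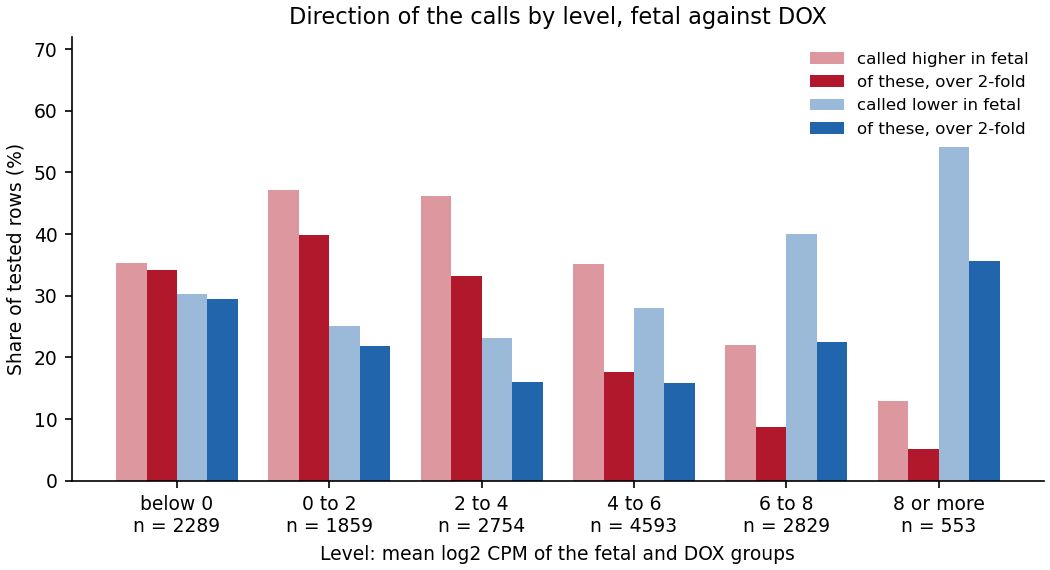
Bars give the share of tested rows (percent) called higher (red) or lower (blue) in fetal than in DOX organoids in each bin of mean log2 CPM, with darker bars for those over 2-fold and n rows below. Higher calls fall from 46.2% to 13.0% and lower calls grow from 23.1% to 54.2% between the bin of 2 to 4 and the bin of 8 or more.

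DOX organoids placed their counts on fewer rows. The 10 rows with most counts took 5.40%, 5.45% and 5.18% of the counts in fetal replicates 1 to 3. In DOX replicates 1 to 3 they took 9.17%, 8.72% and 8.60%, above all fetal values. The number of rows that held 50% of the counts was 1147, 1146 and 1167 in the fetal libraries. It was 577, 579 and 595 in the DOX libraries, and the groups do not overlap. Without DOX it was 953, 975 and, in replicate 3, 643. At an equal depth of 23355962 counts, the expected number of rows with a count was 17446 to 17534 in fetal and 17059 to 17458 in DOX libraries, so the ranges overlap.

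Rows called lower in fetal organoids with TMM scaling made up the bulk of the DOX transcript pool. They held 66.0%, 66.0% and 65.7% of the counts of the DOX libraries and 30.4% to 31.4% of those of the fetal libraries. Rows higher in fetal organoids held 33.6%, 33.7% and 34.6% of the fetal counts and 9.49% to 9.75% of the DOX counts. The calls chose these rows, so the shares describe their weight and are no test. In libraries without DOX, which shaped the calls only through the shared filter, scaling and spread, the same rows held 48.5% to 50.1% and 17.3% to 20.9%. Both shares lay between those of the fetal and the DOX libraries, which the choice of rows by their fetal and DOX difference favours. With library size alone, 2811 rows were called lower and 7908 higher, and the shares of those rows were not computed.

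The most abundant rows differed in identity as well as in level. Of the 100 highest rows of each group, 38 were shared by fetal and DOX organoids, and of the 1000 highest 554. Fetal and no-DOX organoids shared 49 and 633, and DOX and no-DOX organoids 56 and 637. Among the 100 highest DOX rows, each at 1358 CPM or more, 90 were lower and 1 was higher in fetal organoids, with a median log2 difference of −2.27. Among the 100 highest fetal rows, 30 were higher and 34 lower, and with library size alone 45 were higher and 18 lower. Both lists were chosen for a high level in 1 group, which favours a call towards that group. Across the 14877 rows, fetal and DOX group means of log2 CPM correlated at r = 0.747 (Pearson) and 0.792 (Spearman). The values were 0.744 and 0.805 for fetal and no DOX, and 0.892 and 0.898 for DOX and no DOX. These correlations describe rows that share libraries and are not independent replicates.

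A few rows were read in one group and not at all in the other. With at least 1 CPM in each fetal library and 0 counts in all DOX libraries there were 55 rows, with a median of 3.27 CPM and at most 75.6 CPM in fetal organoids. With at least 1 CPM in each DOX library and 0 fetal counts there were 95 rows, with a median of 9.02 CPM and at most 1588 CPM. In sum these rows reached 578 CPM in fetal and 5823 CPM in DOX organoids. A count of 0 allows up to 3 counts over a group, or 0.0423 CPM in DOX and 0.0336 CPM in fetal organoids, for counting error only. Against these floors the median fetal-only row was at least 77.3-fold higher in fetal organoids and the median DOX-only row at least 269-fold lower.

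The same rows were read in adult organoids without DOX, whose counts were no criterion for a row read in only 1 group. Of the 95 rows read only in DOX and not in fetal organoids, 62 (65.3%) had at least 1 CPM in each library without DOX and 1 had no count there. Of the 55 rows read in fetal and not in DOX organoids, 23 (41.8%) had no count without DOX either, and 2 had at least 1 CPM in each of those libraries. The shares of all tested rows at these marks without DOX were not computed. The DOX-only rows also stood higher (median 9.02 CPM, against 3.27 CPM for the fetal-only rows), so the difference between the sets was not separated from level. The wider sets over 8-fold come from calls of the 9-library fit, in which the libraries without DOX share the filter, scaling and spread. The 1036 higher rows had a median of 7.38 CPM in fetal, 0.173 CPM in DOX and 0.408 CPM in organoids without DOX. The 1069 lower rows had a median of 0.142 CPM in fetal, 14.9 CPM in DOX and 9.08 CPM in organoids without DOX. At the median, then, both sets stood on the DOX side in the adult organoids that had received no DOX.

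The row with the largest fold towards fetal organoids among well-counted rows was row 2930 of the table. Fetal replicates 1 to 3 had 672, 629 and 705 CPM. In DOX it had 0, 1 and 1 counts, and without DOX 0 counts in all 3 libraries. The fetal values thus stood alone, with a fetal-to-DOX ratio of 23760 (exact 95% counting interval 6577 to 196200). Named rows were chosen among called rows without overlap between fetal and DOX libraries, so their adjusted p-values are no further support. That of row 2930 was 5.48e-08 (edgeR).

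The largest CPM difference towards fetal organoids was that of row 7652, at 4202, 3975 and 4580 CPM in the fetal libraries. It stood at 429, 362 and 368 CPM with DOX and at 73.6, 106 and 147 CPM without. The fetal libraries lay above all others, and the DOX libraries above all those without DOX. The fetal mean was 4252 ± 305 CPM (SD, n = 3) against 386 ± 37.2 CPM with DOX, a log2 difference of 3.46 ± 0.25 (SE, adjusted p = 2.92e-06, edgeR).

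On the other side, row 565 had 0 counts in all 3 fetal libraries and stood at 1449, 1645 and 1669 CPM with DOX. Without DOX it stood at 180, 219 and 78.9 CPM, between the other groups. It was at least 47310-fold lower in fetal than in DOX organoids, with a floor of 3 counts for the summed fetal libraries (adjusted p = 1.64e-06, edgeR). Row 565 ranked first by its fitted fold, which for a row without fetal counts depends on the prior count. Row 564, next by fitted fold, had 0.0218 CPM in fetal and 7373 CPM in DOX organoids.

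The largest CPM difference towards DOX was that of row 10538, the most counted row of the DOX libraries. It stood at 7557, 8835 and 6928 CPM in fetal and at 31060, 29550 and 34720 CPM in DOX organoids. Without DOX it stood at 31040, 31010 and 35740 CPM, of which replicates 1 and 2 lay in the range of the DOX libraries and replicate 3 above it. The log2 difference, fetal minus DOX, was −2.03 ± 0.18 (SE, adjusted p = 9.32e-06, edgeR). The same fit gave DOX minus no DOX as −0.04 ± 0.17 (SE, adjusted p = 0.866, edgeR).

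**Figure D3:**
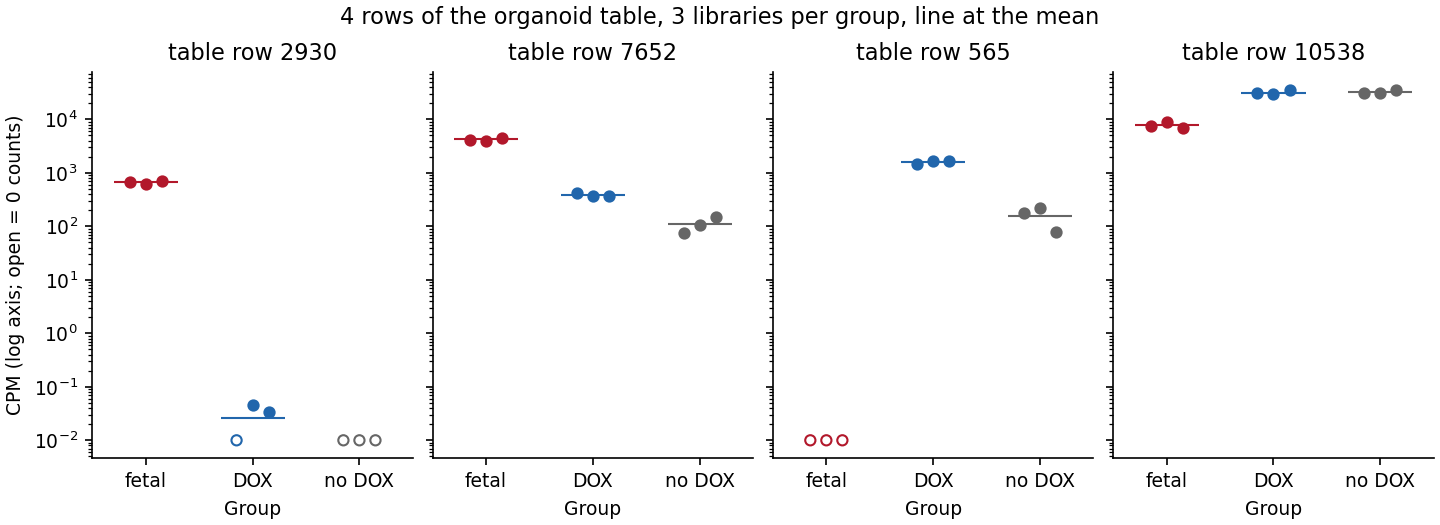
Points are CPM of single libraries on a log axis for the 4 named rows in fetal, DOX and no-DOX organoids, with lines at the group means and open circles for 0 counts drawn at the bottom. Rows 2930 and 7652 are highest in the fetal libraries, row 565 has 0 fetal counts, and row 10538 is at 31780 CPM on average with DOX and 7773 CPM in fetal organoids.

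The first 10 rows of each ranking, the named rows among them, were summed up by their ranges. The 10 rows with the largest fold towards fetal organoids stood at 92.5 to 1466 CPM in fetal, 0.0264 to 2.99 CPM in DOX and 0 to 10.2 CPM in organoids without DOX. The 10 with the largest fold towards DOX stood at 872 to 7373 CPM with DOX and at most 0.340 CPM in fetal organoids. In the group without DOX these 10 were at 89.2 to 1784 CPM. Each was thus above its fetal level without DOX too, but the ranking chose rows at or near 0 fetal counts, which favours that. The 10 rows with the largest CPM difference towards DOX had log2 differences from −18.05 to −0.87, and those towards fetal organoids from 0.74 to 12.01. The 10 towards DOX held 109900 CPM in sum with DOX, 66840 CPM without and 30010 CPM in fetal organoids. The 10 towards fetal organoids held 17880 CPM in fetal, 5027 CPM in DOX and 6246 CPM in organoids without DOX.

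The distance between fetal and DOX organoids can be set beside the other distances within the table. Over the 9 library pairs, the root mean square log2 CPM difference between fetal and DOX was 2.22 to 2.25. Within a group it was 0.28 to 0.30 for fetal and 0.31 to 0.38 for DOX libraries. The pairs of fetal and no-DOX libraries gave 2.11 to 2.37, and 2.11 to 2.13 when replicate 3 without DOX was left out. The pairs of DOX and no-DOX libraries gave 1.41 to 1.76, and 1.41 to 1.46 when it was left out. By this measure no fetal-to-DOX pair lay nearer than the fetal-to-no-DOX pairs without that replicate. By the median absolute log2 CPM difference, fetal to DOX gave 0.86 to 0.90. Without replicate 3, fetal to no DOX gave 0.54 to 0.57 and DOX to no DOX 0.67 to 0.69. By the median, then, fetal and no-DOX libraries were the nearest groups. The pairs share libraries and were not tested against each other.

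Fetal-to-DOX pairs were also no nearer than fetal-to-no-DOX pairs without replicate 3 in the share of counts that 2 libraries placed on different rows. This measure scales each library by its total count alone. It was 35.2% to 36.4% between fetal and DOX libraries, against 2.56% to 3.25% within fetal and 2.45% to 5.92% within DOX libraries. Between fetal and no-DOX libraries it was 24.7% to 39.2%, and 24.7% to 26.0% when replicate 3 was left out. The pairs with that replicate were the only ones of this kind above the fetal-to-DOX range. Between DOX and no-DOX libraries it was 25.5% to 36.2%, and 25.5% to 27.1% when replicate 3 was left out.

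**Figure D4:**
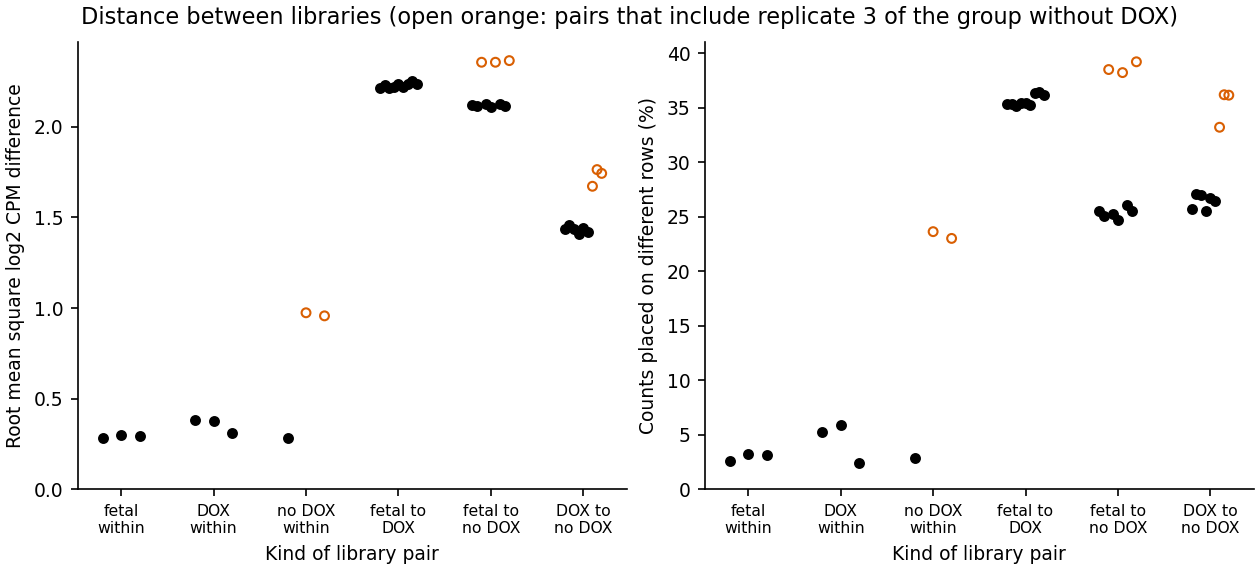
Each point is a pair of libraries, with the root mean square log2 CPM difference on the left axis and the share of counts on different rows (percent) on the right, and open orange points for pairs with replicate 3 of the no-DOX group. Fetal-to-DOX pairs lie at 2.22 to 2.25 and 35.2% to 36.4%, far above the pairs within fetal or DOX libraries.

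Numbers of called rows are given for the 3 comparisons from the same fit. Fetal against no-DOX organoids differed in 8393 rows (56.4%), of which 5430 (36.5% of tested rows) by over 2-fold. DOX against no-DOX organoids differed in 8785 rows (59.1%), of which 5341 (35.9%) by over 2-fold. The median absolute log2 difference was 0.90 for fetal and DOX, 0.69 for fetal and no DOX and 0.77 for DOX and no DOX. Over 8-fold there were 2105, 2020 and 926 called rows in the same order, and over 32-fold 1056, 1105 and 274. The comparisons share libraries, so their counts stand side by side without a test. Leaving out replicate 3 without DOX raised the called rows to 12644, 10986 and 11416 in the same order, of 15188 tested rows.

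**Figure D5:**
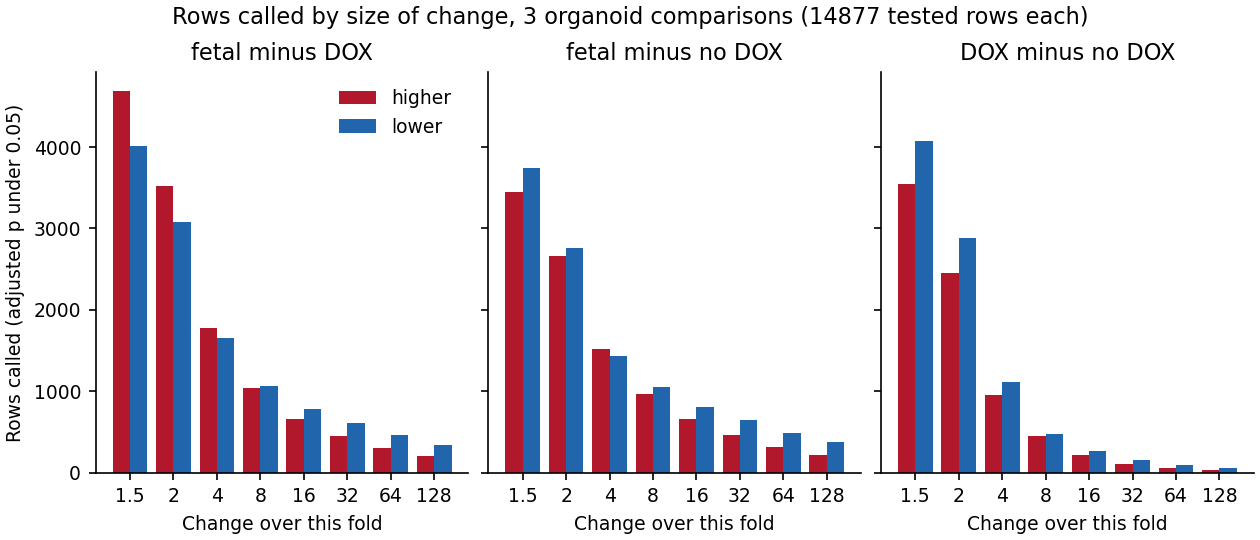
Bars count the rows called higher (red) or lower (blue) in the first-named group by more than each fold, for the 3 comparisons of the organoid groups over 14877 tested rows. The 2 comparisons with fetal organoids keep 2105 and 2020 rows over 8-fold, and DOX against no DOX keeps 926.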

How the data were processed

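Per the submitters' processing notes, the organoid libraries were processed with mm10, featureCounts and edgeR, with no version given. The deposited values are raw counts per row: they are whole numbers, and their totals differ between libraries. What aligner, annotation, strand setting and filters were used is not given in the sources used here. RNA was sequenced on a NextSeq, per the labels' protocols, which name a TruSeq kit for the fetal organoids alone.

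A quasi-likelihood model was fitted to the counts of all rows with edgeR 4.0.16 (R 4.3.3), using TMM scaling, filterByExpr by group and the means of the 3 organoid groups. Rows with an adjusted p under 0.05 (Benjamini-Hochberg) count as called. The SE is the size of the log2 fold change over the square root of F, an approximation that can be too small in rows with few counts, and 16 rows without one were not counted as bounded. CPM uses TMM-scaled library sizes, and log2 CPM a prior count of 2. The prior count behind the fitted fold changes is the default of edgeR and was not set to 2. Upper limits for 0 counts use 3 counts over the group, and the counting interval is exact (Clopper-Pearson, 95%). Both cover counting error only. The procedure was also run on simulated data, but the setting and outcome of that run are not given here. The run is therefore not taken as a check of the scaling or of the shared spread in these libraries. Alternatives were other scalings, DESeq2 1.42.0, other filters, fewer libraries, a test against 1.5-fold and a replicate block.

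Named rows were the row with the largest fitted fold and the row with the largest CPM difference in each direction. They came from called rows with a mean log2 CPM of at least 3 and no overlap between groups. The rows, lists and tests were chosen with earlier results of these data known. No gene name was inferred from row order, and the in vivo table was not used here.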

Additional observations from a re-analysis of the deposited data

How the results depend on the processing

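The scaling moved the balance of directions. Calls higher in fetal organoids were 53.8% of all calls with TMM, 50.5% with RLE size factors, 60.5% with upper quartile scaling, 73.8% with library size alone, 50.4% with DESeq2 and 51.0% from the fetal and DOX libraries alone. With library size alone 7908 rows were higher and 2811 lower. The median absolute log2 difference was 0.90, and 1.09 with library size alone, 0.93 with upper quartile scaling, 1.05 with no filter on low counts, 0.86 with a filter of 1 CPM in 3 libraries, 0.88 from the fetal and DOX libraries alone, 0.91 without replicate 3 of the no-DOX group and 0.89 to 0.92 when a fetal or DOX library was left out. At 5 CPM in each library, 20 rows were read in fetal and not DOX, and 52 in DOX and not fetal organoids.

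Called rows between fetal and DOX organoids ranged from 6962 (test against 1.5-fold) to 12644 (of 15188 tested, without replicate 3 of the no-DOX group). They were 10143 with DESeq2, 9599 of them shared with edgeR in direction. Over 2-fold the count ranged from 5969 to 7769. The 4 named rows kept their direction and their call under every alternative in which they were tested. Same-numbered fetal and DOX libraries did not deviate together (correlations of −0.05 to 0.02), and the fit with the replicate block called 9290 rows. The median SE of the 9-library fit was 0.22. It was 0.09 without replicate 3 of the no-DOX group, and 0.09 from the fetal and DOX libraries alone, where 6330 rows were bounded within 2-fold. The scalings by level, the rows shared by all scalings, the distances without replicate 3 and the fits without replicate 1 or 2 of the no-DOX group (9989 and 9931 called rows) were added after seeing the data.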

Other observations

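Rows with large differences stood next to each other in the table more often than tested rows in general. Of the 690 rows over 8-fold lower in fetal than in DOX organoids whose next row was also tested, 218 (31.6%) were followed by another such row. Of all 10327 tested rows with a tested next row, 6.73% were followed by a row of that kind. Of the 592 rows over 8-fold higher in fetal organoids with a tested next row, 127 (21.5%) were followed by another, against 6.09% of all. A large difference was followed by one of the opposite direction in 22 cases each (3.19% and 3.72%). The longest uninterrupted stretch was 8 rows on the DOX side and 6 on the fetal side. What sets the order of the rows is not given in the sources used here, and whether neighbouring rows share reads was not tested.

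Replicate 3 without DOX differed from replicates 1 and 2 by a root mean square log2 difference of 0.96 to 0.97, beside 0.29 between those 2. It had the lowest total count of the table, 12724510, and 643 of its rows held 50% of its counts, nearer the 577 to 595 rows of the DOX libraries than the 953 and 975 of its own group. It lay farther from the DOX libraries (1.67 to 1.76) than replicates 1 and 2 did (1.41 to 1.46).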
